A study of Onthophagus taurus with 66 samples.

Results

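The transcripts described here belong to *glass*, *atonal* and *rough*, genes known for the specification of the insect eye, in the developing dorsal head of the horned beetle *Onthophagus taurus*. They were chosen by their names in the study's annotation, which gave 4 of the 23725 transcripts measured: XM_023044973.1 (*glass*), XM_023063962.1 and XM_023063666.1 (both annotated as *atonal*, and called *atonal a* and *atonal b* below) and XM_023054474.1 (*rough*). All 4 were detected in the data. Poly(A) RNA was sequenced from the dorsal head epithelium of pre-pupae, larvae about to molt into pupae, of 6 males and 5 females that received no treatment and carry no allele named in the labels. Each head was cut into 6 pieces and each piece became 1 library, 66 in all: the left and right lateral posterior (LatP), the medial posterior (MP), the left and right lateral anterior (LatA) and the medial anterior (MA) region. LatP is the region from which the paired posterior horns of males grow, whereas females remain hornless. By the study's methods, remnants of eye tissue and the brain and muscle beneath the epithelium were removed at dissection, and the colonies were founded from beetles of separate localities, which the labels do not assign to animals.

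In *Drosophila*, from which the roles of these genes are known, the retina is patterned by a furrow that sweeps across the eye disc. *atonal* encodes a proneural basic helix-loop-helix factor that selects the founding photoreceptor of each facet, *rough* a homeodomain protein that restricts *atonal* behind the furrow and shapes the photoreceptors recruited next, and *glass* a zinc finger factor that photoreceptors need in order to differentiate. Upstream of them stands the retinal determination network, which includes the Pax6 gene *twin of eyeless*, *sine oculis* and *dachshund*.

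Sequencing depth lay between 10807956 and 17048942 counts per library (median 13246361). Levels are given in CPM, the count of a transcript relative to the library total after TMM scaling, and 3 counts, the floor of detection in a library, correspond to between 0.117 and 0.326 CPM. To learn which libraries stand apart, each was compared with the mean of each of the 4 regions over 500 transcripts that vary between regions, with the members and the marker lists left out. All 22 LatP and all 11 MP libraries lay closest to their own region. Among the anterior libraries, 5 of 22 LatA libraries and 1 of 11 MA libraries lay closest to another region, of which only the left LatA library of female 2 lay closest to LatP. The left and right LatA libraries of male 1, the right one of male 4 and the right one of female 2 lay closest to MA, and the MA library of male 1 to LatA. For 2 of these the margin was slight. The right LatA library of male 4 had a correlation of 0.44163 with MA and 0.44157 with LatA. That of female 2 had 0.277 and 0.270. Muscle markers, summed over 7 transcripts, reached 252 CPM in that left LatA library of female 2, the highest of any LatA library.

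All 4 transcripts were concentrated in LatP in both sexes. Of the counts of each transcript over all 66 libraries, 97.5% fell in the 22 LatP libraries for *glass*, 95.6% for *atonal a*, 96.4% for *atonal b* and 95.7% for *rough*. *glass*, *atonal a* and *atonal b* exceeded 3 counts in each of the 22 LatP libraries, and *rough* did so in 14 of them, comprising all 10 of females and 4 of 12 of males. In the 22 medial libraries (MP and MA), *glass* and *rough* had no count at all, which allows up to 3 counts per library, *atonal b* had a count in 2 and *atonal a* in 14, although only 1 of these, the MA library of female 1 with 12 counts of *atonal a*, exceeded 3. In bulk tissue, fewer cells of a type and less RNA per cell cannot be told apart.

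**Figure D1:**
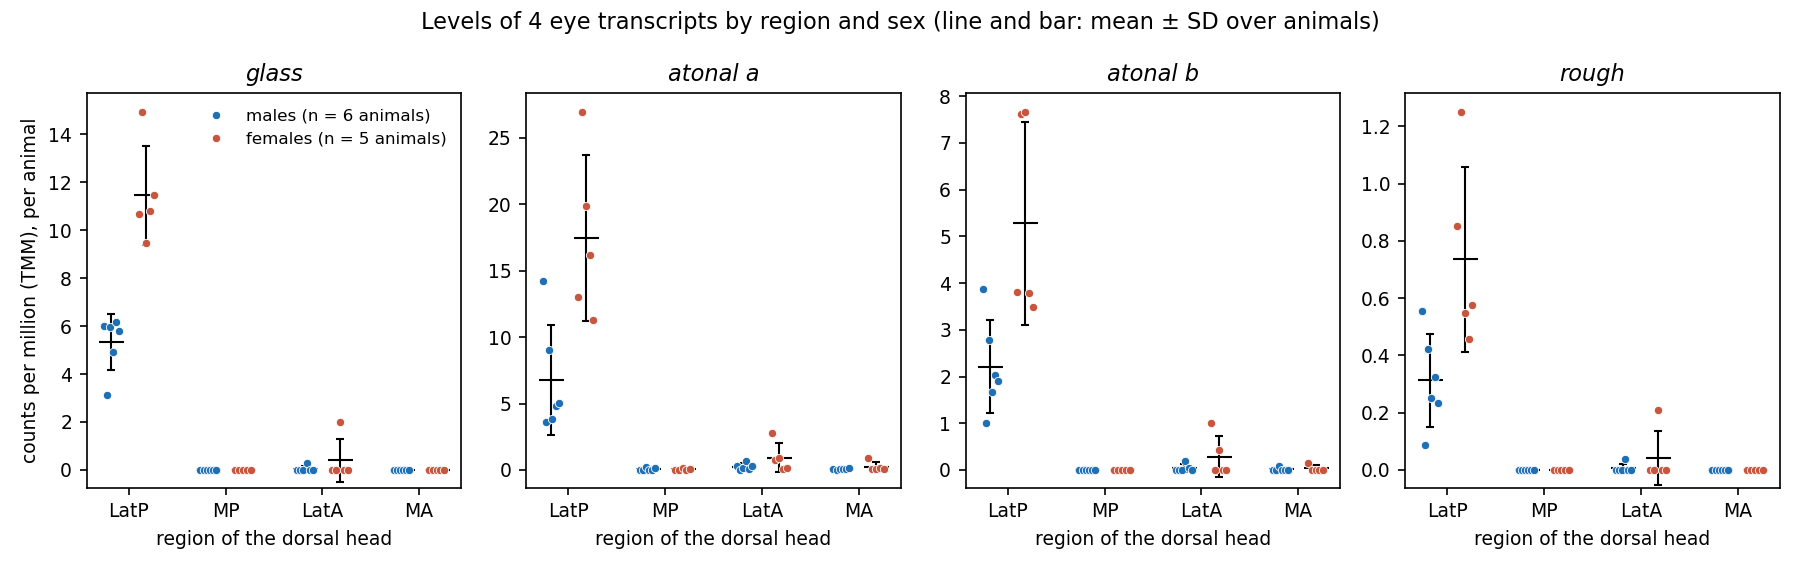
Level of each transcript (vertical axis, TMM-scaled CPM, left and right pieces of an animal averaged) in the 4 regions of 6 males and 5 females, with the mean and SD over animals. Each animal's LatP point lies above that animal's other points, and *glass* and *rough* lie at 0 in every MP and MA library.

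Looking at each transcript in turn, *glass* had 29, 60.97 and 137 counts in the lowest, median and highest of the 12 male LatP libraries. In the 10 female LatP libraries the same values were 149, 204 and 322 counts. The animals averaged 5.33 ± 1.18 CPM in male LatP and 11.5 ± 2.07 CPM in female LatP (SD, n = 6 and 5). The 2 sexes did not overlap, since the highest male stood at 6.19 CPM and the lowest female at 9.46 CPM.

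*atonal a* had 37, 64.5 and 166 counts in the lowest, median and highest male LatP library, and 127, 290.0 and 565 counts in the female ones. It averaged 6.76 ± 4.15 CPM in males and 17.5 ± 6.24 CPM in females. Male 1, at 14.2 CPM, stood above females 1 and 5, at 12.98 and 11.3 CPM, so that the sexes overlapped, whereas the other 5 males lay between 3.59 and 9.06 CPM.

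*atonal b* had 9, 31.5 and 56 counts in the lowest, median and highest male LatP library and 45, 72 and 206 in the female ones. It averaged 2.21 ± 0.991 CPM in males and 5.28 ± 2.17 CPM in females. The 5 females fell into 3 animals between 3.49 and 3.82 CPM and 2 animals, females 2 and 3, at 7.63 and 7.67 CPM. Male 1, at 3.87 CPM, again stood above 3 of the females.

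*rough* was the sparsest of the 4, with 0, 3 and 10 counts in the lowest, median and highest male LatP library and 6, 9 and 27 in the female ones. It averaged 0.313 ± 0.162 CPM in males and 0.737 ± 0.323 CPM in females. The male mean lies within the range of floors over all libraries, 0.117 to 0.326 CPM. In the male LatP libraries that held exactly 3 counts, these made 0.218 to 0.263 CPM, not far below that mean. The median male LatP library stood at the floor of 3 counts. A level that low is set largely by single reads, and the values of *rough* are therefore the least precise of those reported. Relative to its mean, *glass* varied least between animals, with an SD of 0.221 of the mean in males and 0.18 in females, against 0.614 and 0.357 for *atonal a*.

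The first comparison asked whether LatP differs from the medial posterior head between the 2 lateral pieces. Transcripts above 1 CPM in 2 or more of the libraries entered a test, and a call required a log2 fold change (log2FC) beyond 2 in either direction with an adjusted p below 0.001 in edgeR's quasi-likelihood test with Benjamini-Hochberg adjustment over all transcripts tested. Transcripts have names here only where the study itself found them to differ between regions or sexes in these libraries, so that the calls of the members are not independent evidence of their direction. In males 3 of the 4 transcripts were called higher in LatP than in MP, where 0.44% of the 13167 transcripts tested were. *glass* stood at 5.33 CPM in male LatP and at 0 counts in every male MP library, a level at least 16.3-fold higher (adjusted p = 8.33e-07, 6 of 6 males). *atonal b*, also at 0 in every male MP library, was at least 6.78-fold higher (adjusted p = 8.64e-06, 6 of 6 males). *atonal a* averaged 6.76 CPM in male LatP against 0.0707 ± 0.112 CPM in male MP, a log2FC of 6.35 (SE 0.757, adjusted p = 3.25e-05, 6 of 6 males). *rough* was not tested in males because too few libraries passed 1 CPM. With no filter its log2FC was 4.97 (SE 0.861, adjusted p = 0.00454), which is not a call.

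Females gave the same 3 calls against MP, where 0.245% of the 14297 transcripts tested were called higher in LatP. *glass* was at least 35.1-fold higher in female LatP than in MP (adjusted p = 7.79e-07) and *atonal b* at least 16.2-fold (adjusted p = 4.02e-05), in 5 of 5 females each. *atonal a* averaged 17.5 CPM in female LatP and 0.0476 ± 0.0777 CPM in female MP, a log2FC of 8.13 (SE 0.717, adjusted p = 2.15e-05, 5 of 5 females). *rough* passed the filter here. Its level was at least 2.26-fold higher in LatP, in 5 of 5 females, but its adjusted p of 0.00237 missed the threshold. DESeq2 called it. Left and right pieces of an animal enter these tests as separate replicates, although they are not independent. When the 2 pieces were added together, only *glass* remained called against MP in each sex (adjusted p = 0.000151 in males and 0.000865 in females), *atonal a* had an adjusted p of 0.00163 in males and 0.00174 in females, and *atonal b* 0.00209 in males and 0.00522 in females.

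Against MA, the medial anterior head, the picture was similar. In males 3 of 4 transcripts were called higher in LatP (0.431% of all tested), and in females 3 of 4 (0.294%), the exception being *rough*, which was not tested in males and had an adjusted p of 0.00214 in females. *glass* had no count in the 11 MA libraries, so that the same lower bounds of 16.3-fold in males and 35.1-fold in females apply (adjusted p = 1.02e-06 and 5.68e-07). *atonal a* stood at 6.76 CPM in male LatP against 0.0848 ± 0.0509 CPM in male MA (log2FC 6.17, SE 0.570, adjusted p = 2.70e-06), and at 17.5 CPM in female LatP against 0.253 ± 0.372 CPM in female MA (log2FC 6.10, SE 0.698, adjusted p = 0.00011). *atonal b* had 339 counts in male LatP against 1 count in male MA (adjusted p = 1.79e-05) and 983 counts in female LatP against 2 in female MA (adjusted p = 0.000103). The call of both *atonal* transcripts in females was lost without any 1 of females 2, 3, 4 and 5, whereas *glass* was called in each of those fits. With the 2 pieces of an animal added together, females kept the call of *glass* alone (adjusted p = 0.00421 for *atonal a* and 0.00572 for *atonal b*), and males lost that of *atonal b* (adjusted p = 0.00112). With the pieces added and the animal as a block, 0 of the 4 were called in either sex.

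The second main comparison set LatP against LatA, the neighboring anterior piece on the same side. In males 3 of 4 transcripts were called higher in LatP, where 0.602% of the 13615 transcripts tested were. *glass* averaged 5.33 ± 1.18 CPM in male LatP and 0.0456 ± 0.112 CPM in male LatA, a log2FC of 6.57 (SE 0.728, adjusted p = 1.06e-06). *atonal a* averaged 6.76 ± 4.15 CPM in male LatP and 0.237 ± 0.258 CPM in male LatA, a log2FC of 4.79 (SE 0.728, adjusted p = 8.15e-05). *atonal b* averaged 2.21 ± 0.991 CPM in male LatP and 0.0387 ± 0.0782 CPM in male LatA, a log2FC of 5.50 (SE 0.751, adjusted p = 1.78e-05). *rough*, not tested under the filter, had 48 counts in male LatP and 1 in male LatA, and was called without the filter (log2FC 4.28, SE 0.634, adjusted p = 7.44e-05). Adding both sides of each male together ended all 3 calls in males (adjusted p = 0.00303 for *glass*, 0.00581 for *atonal a* and 0.011 for *atonal b*).

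In females none of the 4 transcripts was called between LatP and LatA, where 0.329% of the 14584 tested were called higher, although all 4 were higher in LatP in 5 of 5 females. *glass* averaged 11.5 ± 2.07 CPM in female LatP and 0.398 ± 0.890 CPM in female LatA, a log2FC of 4.74 (SE 1.05, adjusted p = 0.0133). *atonal a* averaged 17.5 ± 6.24 CPM in female LatP and 0.914 ± 1.102 CPM in female LatA, a log2FC of 4.24 (SE 0.743, adjusted p = 0.00182). The log2FC was 4.17 for *atonal b* (SE 1.01, adjusted p = 0.0239) and 3.83 for *rough* (SE 0.983, adjusted p = 0.033). The SD over female LatA exceeded its mean for all 4 transcripts. At the wider threshold of an adjusted p under 0.05 all 4 passed, as did 2.08% of the transcripts tested in that direction, and DESeq2 called *atonal a* and *rough*. The pieces come from the same animals, and with the animal as a block *glass* (log2FC 7.15, adjusted p = 0.000622) and *atonal a* (log2FC 4.89, adjusted p = 0.000399) were called, while *atonal b* (adjusted p = 0.00417) and *rough* (adjusted p = 0.00395) were not. Both of these calls were lost when the pieces of an animal were also added together under that block (adjusted p = 0.142 for *glass* and 0.0944 for *atonal a*). An interaction term that set the change between LatP and LatA in males against that in females passed an adjusted p under 0.05 for none of the 4 transcripts, against 1.03% of the 15112 tested, with log2 differences of 1.83 for *glass* (SE 1.13, adjusted p = 0.616), 0.56 for *atonal a* (SE 0.889, adjusted p = 0.951), 1.38 for *atonal b* (SE 1.05, adjusted p = 0.749) and 0.57 for *rough* (SE 0.525, adjusted p = 0.836). The direction of these differences was not stable, since it turned for *glass* with the animal as a block (-0.30) and without female 3 (-3.75), for *atonal a* (-0.53) and *atonal b* (-0.058) without female 1, and for *rough* with the block (-0.53) and without female 3 (-2.07). A call in males and none in females is therefore not shown to be a difference between the sexes.

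The counts in LatA were concentrated in single libraries. Most of the 22 LatA libraries had no count of *glass*, *atonal b* or *rough*, and over 3 counts were found in 2 of 22 for *glass*, 8 of 22 for *atonal a*, 3 of 22 for *atonal b* and 1 of 22 for *rough*. The left LatA library of female 3 held 67 counts of *glass*, 29 of *atonal a*, 14 of *atonal b* and 7 of *rough*. The left LatA library of male 4 held 7 counts of *glass*, 18 of *atonal a*, 5 of *atonal b* and 1 of *rough*. The right LatA library of female 1 held 66 counts of *atonal a* and 26 of *atonal b*, yet none of *glass* or *rough*. In each of these animals the opposite LatA piece was at or near 0, with at most 5 counts of *atonal a* and none of *glass*.

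All 3 of these libraries lay closest to LatA by their other transcripts. The right LatA library of female 1 held a summed level of retinal determination transcripts of 10.6 CPM, against a median of 11.6 CPM in female LatA. The left LatA libraries of female 3 and of male 4 held the highest such level among the LatA libraries of their sex, 16.4 and 15.8 CPM. The next highest of each sex were close, at 15.6 CPM in the right LatA library of female 3 and 15.1 CPM in the left one of male 3, both without *glass*. Photoreceptor markers, described below, summed to 9.77 CPM in the left LatA library of female 3, the highest of female LatA, to 8.61 CPM in that of male 4 and to 8.03 CPM in the right one of female 1. The left and right LatA libraries of male 1, with no count of *glass*, stood above that of male 4, at 13.1 and 9.21 CPM. Eye pigment transcripts, also described below, summed to 4.40 CPM in the left LatA library of female 3. They summed to 3.91 CPM in that of male 4 and to 3.73 CPM in the right one of female 1. The medians were 2.38 CPM in female and 2.72 CPM in male LatA. The left LatA libraries of female 1 and male 1, without *glass*, stood higher, at 4.91 and 5.83 CPM. Of the retinal determination sums, *dachshund* alone averaged 6.99 CPM in female LatA. Muscle markers summed to 235 CPM in the left LatA library of female 3, against a median of 45.4 CPM in female LatA, to 40.3 CPM in that of male 4 and to 42.6 CPM in the right one of female 1. Their part in the result was not tested. Without these 3 libraries, which were picked for their counts after the data were seen, all 4 transcripts were called higher in LatP than in LatA in females (adjusted p = 1.09e-07 for *glass*, 1.55e-05 for *atonal a*, 6.75e-06 for *atonal b* and 0.000591 for *rough*). Without the left LatA library of female 2, which lay closest to LatP, none was called, as in the full set.

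**Figure D2:**
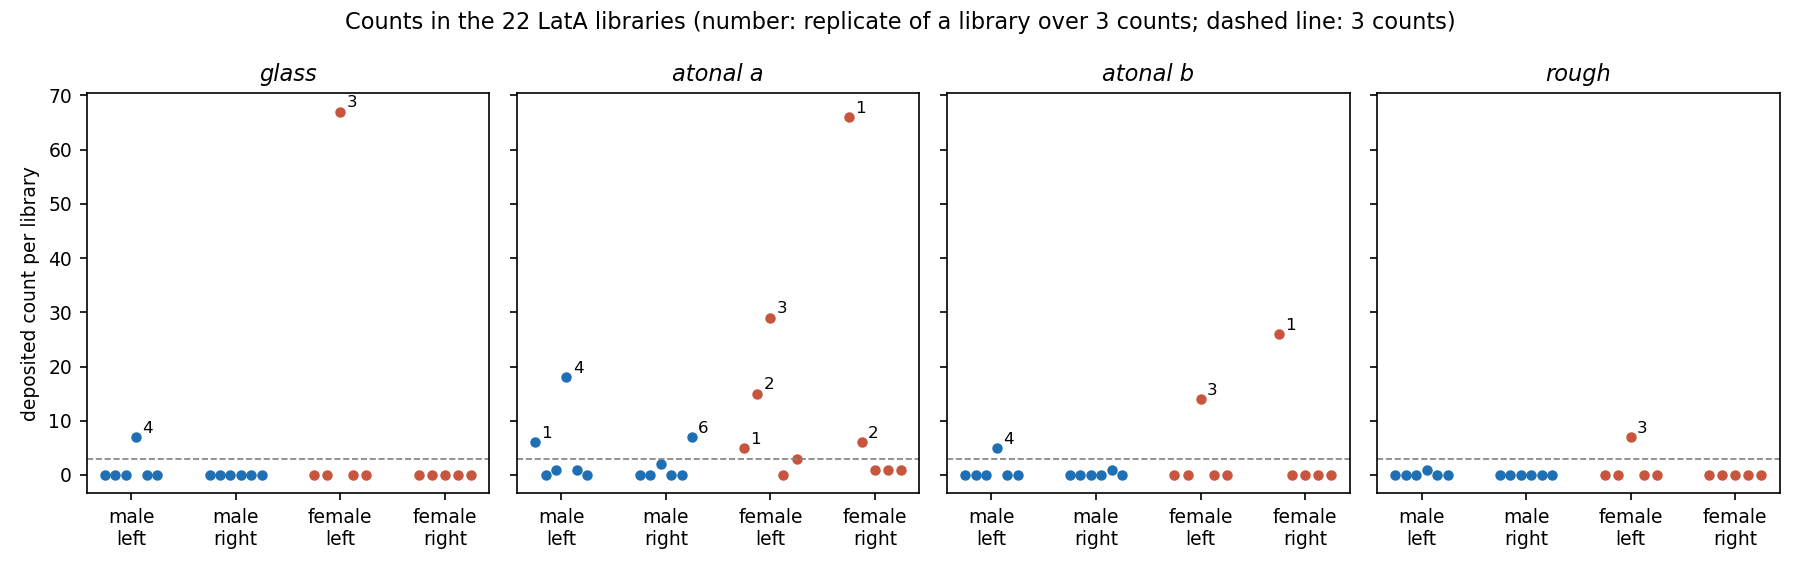
Deposited counts of each transcript (vertical axis, reads per library) in the 22 LatA libraries, by sex and side, with the replicate number beside libraries over 3 counts. *glass* exceeds 3 counts only in the left pieces of male 4 (7) and female 3 (67), and the right piece of female 1 holds 66 counts of *atonal a* with no *glass*.

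Among MP, LatA and MA themselves, no member was called. Only *atonal a* in females passed the filter there. It was not called between MP and LatA, where 0.0811% of all transcripts tested were called higher and 0.0664% lower, nor between LatA and MA (0%), at 0.0476 ± 0.0777 CPM in MP against 0.914 ± 1.102 CPM in LatA (log2FC -3.96, SE 1.52, adjusted p = 0.302) and at the same LatA level against 0.253 ± 0.372 CPM in MA (log2FC 1.83, SE 1.28, adjusted p = 1). By mean level *atonal a* was highest in LatP and next in LatA in both sexes. MP and MA cannot be ranked. In males both means (0.0707 and 0.0848 CPM) lay under the lowest floor of 0.117 CPM, and in females 12 of the 17 counts in MA came from female 1. LatA stood above MP in 5 of 5 females, without a call. MP and MA were not compared by a test in either sex, nor was any pair of these 3 regions in males.

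Next, males, whose LatP forms horns, were compared with females within each region. In LatP none of the 4 transcripts was called, where 0.352% of the 14494 transcripts tested were called higher and 0.0414% lower in males, and DESeq2 also called 0 of the 4. All 4 nevertheless had their lower mean in males. The log2FC of males against females was -1.08 for *glass* (SE 0.206, adjusted p = 0.00141), -1.34 for *atonal a* (SE 0.315, adjusted p = 0.00686), -1.23 for *atonal b* (SE 0.293, adjusted p = 0.00758) and -1.19 for *rough* (SE 0.485, adjusted p = 0.108). For *glass*, 0 of 30 pairs of a male and a female had the male higher, against 2 of 30 for *atonal a*, 3 of 30 for *atonal b* and 2 of 30 for *rough*. At an adjusted p under 0.05 and a log2FC under -1, 3 of the 4 passed, as did 3.1% of all transcripts tested. With the 2 pieces of an animal added together, the adjusted p was 0.0297 for *glass*, 0.127 for *atonal a* and 0.128 for *atonal b*, and *rough* was not tested.

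The size of this difference depended on the scaling, its direction did not. TMM factors lay between 0.734 and 0.992 in male LatP libraries and between 1.09 and 1.71 in female ones. When libraries were scaled by their totals alone, the median transcript shifted by -0.55 on the log2 scale between male and female LatP, against -0.06 with TMM, and *glass* stood at 4.73 ± 1.39 CPM in males against 15.98 ± 2.84 CPM in females. The log2FC was then -1.75 for *glass*, -2.01 for *atonal a*, -1.92 for *atonal b* and -1.79 for *rough*, of which *atonal a* was called (adjusted p = 8.42e-05). The split of called transcripts moved as well, to 35 higher and 173 lower in males with plain totals, against 51 and 6 with TMM.

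In the other regions no member was called between the sexes by edgeR or DESeq2 (0% of all transcripts tested by edgeR). Only *atonal a* in LatA was tested, at 0.237 ± 0.258 CPM in males against 0.914 ± 1.102 CPM in females (log2FC -1.90, SE 1.08, adjusted p = 0.454).

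Ratios of counts within a library do not depend on scaling and were therefore compared as a description. The count of *atonal b* was 0.352 ± 0.074 of that of *atonal a* in LatP of males and 0.301 ± 0.0543 in LatP of females (SD over 6 and 5 animals), with ranges of 0.273 to 0.440 and 0.234 to 0.384 that overlapped. The 2 *atonal* transcripts thus kept a similar ratio while their levels spanned from 3.59 to 26.98 CPM (*atonal a*) over the 11 animals. The count of *glass* was 0.947 ± 0.358 of that of *atonal a* in males and 0.709 ± 0.216 in females. The lowest such ratio, 0.426, was that of male 1, which had the highest *atonal a* of the males and an unexceptional *glass* level of 6.02 CPM. Female 3 followed at 0.466. These counts leave out another *glass* isoform, which was given 23.36 counts in the left piece of male 1 and 18.77 in that of female 3. The 2 animals therefore cannot be ranked for the gene as a whole.

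Left and right LatP pieces were compared to learn how far the pieces of 1 animal differ. None of the 4 transcripts was called between the sides in either sex by edgeR or DESeq2 (0% of all transcripts tested by edgeR), and *glass* in females alone had an unadjusted edgeR p under 0.05. These fits held no term for the animal, so that the 2 sides of an animal were not paired in them. *glass* was higher on the left in 5 of 5 females, at 13.5 CPM against 9.46 CPM on the right (log2FC 0.50, SE 0.182, adjusted p = 1 in edgeR), and in 1 of 6 males, at 4.91 CPM on the left against 5.75 CPM on the right (log2FC -0.23, SE 0.327, adjusted p = 1 in edgeR). The 2 sides of an animal differed by up to 2.95-fold for *atonal a*, in female 2 with 40.3 CPM on the left and 13.7 CPM on the right. For the *glass* transcript the most uneven animals were male 1, with 3.11 CPM on the left and 8.93 CPM on the right, and male 5, with 8.89 CPM on the left and 3.48 CPM on the right. In the left piece of male 1, however, 23.36 further counts went to another *glass* isoform, beside 35.64 for this transcript. In the right piece of male 5, 9.17 counts went to a transcript that shares reads with *glass*, beside 53.83. The gaps, that of male 1 most, therefore depend on how reads were divided between transcripts.

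**Figure D3:**
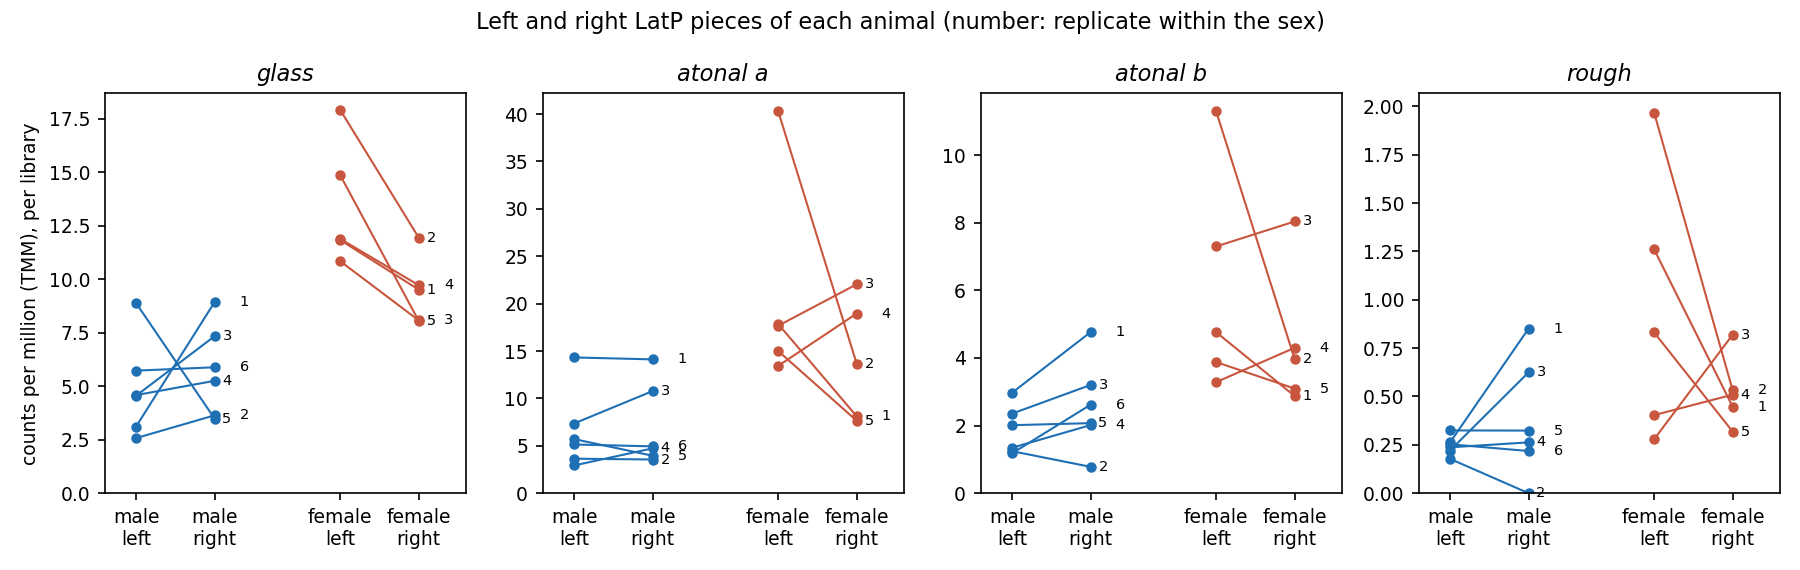
Level of each transcript (vertical axis, TMM-scaled CPM per library) in the left and right LatP pieces of 6 males and 5 females, with a line joining the pieces of 1 animal and its replicate number at the right end. *glass* falls on the right in all 5 females, and the left piece of female 2 holds the highest *atonal a*, 40.3 CPM.

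The other transcripts of these genes, and the genes beside them, were read to see how specific the signal is to the 4 transcripts. The annotation pairs *glass* with a further isoform, XM_023044972.1, which had 67.7 counts in all, in 4 LatP libraries and nowhere else. In the 7 libraries where the estimate for XM_023044973.1 was not a whole number, reads were shared with that isoform or with XM_023044974.1, a transcript with no annotation in the sources used here. XM_023044974.1 had 60.84 counts in all. They include 2 in the MP library of male 2 and 1 each in the right LatA library of female 4 and the left one of male 1. Estimates for both *atonal* transcripts and for *rough* were whole numbers in all 66 libraries. These 2 genes are separated by a single gene in the current annotation, whose transcript XM_023064113.1 had 35 counts over 15 libraries, with means of 0.0525 CPM in male LatP and 0.112 CPM in female LatP, at most 0.0178 CPM in LatA and 0 in MP and MA, and was too low to test. Of 16 transcripts from the nearest genes on either side of the members, picked by position, 10 or 11 were tested in each contrast of LatP with MP or LatA and none was called. The gene next to *glass*, annotated as a trehalose transporter (XM_023044971.1), averaged 0.255 ± 0.149 CPM in male LatP against 0.185 ± 0.288 CPM in male MP, and 0.518 ± 0.257 CPM in female LatP against 0 in every female MP and MA library, with 167 counts in all. In females its adjusted p was 0.00249 against MP and 0.031 against LatA, and in males it was not tested.

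The transcripts whose pattern across regions and animals was most like that of the members were then listed. Likeness was the Pearson correlation of log2(CPM + 1) over 44 values, 1 per animal and region, which share their libraries and are dominated by the step between LatP and the rest, so that it is given as a description. The 5 closest to *glass* were *vermilion*, the tryptophan dioxygenase that starts ommochrome pigment synthesis (r = 0.983), *scarlet*, a transporter of pigment precursors (r = 0.973), the Pax-6-like transcript of *twin of eyeless* (r = 0.973), *mahogany*, annotated as an amino acid transporter (r = 0.97), and *atonal b* (r = 0.961). *atonal a* and *atonal b* were each other's closest (r = 0.989), followed in both cases by *glass* (r = 0.958 for *atonal a* and 0.961 for *atonal b*). For the 2 *atonal* transcripts *vermilion*, *mahogany* and the uncharacterized transcript XM_023062884.1 made up the remainder, with r between 0.947 and 0.956. For *rough* the closest were *atonal b* (r = 0.945), *glass* (r = 0.939), XM_023062884.1 (r = 0.936), *atonal a* (r = 0.931) and *mahogany* (r = 0.93).

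To place the members in their pathway, 29 genes of retinal determination, furrow progression and photoreceptor fate were listed, and 7 of them could be matched to a name in the sources used here, with 9 transcripts. As for the members, names exist only for transcripts called on these same samples, and the counts below are not independent evidence of direction. Of the 4 retinal determination transcripts, 1 was called higher in LatP than in MP in males and 1 in females, and 1 in males and 2 in females against LatA, with none lower. Over all transcripts tested, 0.44% in males and 0.245% in females were called higher against MP, and 0.602% and 0.329% against LatA. The 4 had a median log2FC of 4.12 in males and 2.45 in females against MP, while that of all transcripts tested was -0.01 and 0.02. That median spans a split list. In male LatP against MP, the Pax-6-like and the other Pax-6 transcript of *twin of eyeless* stood at 7.39 and 8.55 (adjusted p = 0.00105 for the latter, not a call). *sine oculis* stood at 0.84 (adjusted p = 0.0709) and *dachshund* at 0.23 (adjusted p = 0.714), which are not calls. The Pax-6-like transcript of *twin of eyeless*, which stands at the top of the network, averaged 9.21 ± 0.973 CPM in male LatP against 0.0443 ± 0.0759 CPM in male MP (log2FC 7.39, adjusted p = 2.77e-07), and 15.7 ± 3.82 CPM in female LatP against 0.0238 ± 0.0326 CPM in female MP (log2FC 8.80, adjusted p = 7.79e-07). Against LatA it was called in males (log2FC 3.91, adjusted p = 4.03e-05) and not in females (log2FC 3.82, adjusted p = 0.00677). *sine oculis*, a homeobox partner in the network, was called in females against LatA, with 8.57 ± 1.26 CPM in LatP and 1.51 ± 0.637 CPM in LatA (log2FC 2.49, adjusted p = 3.58e-05). *dachshund*, a nuclear factor of the same network, averaged 32.5 ± 7.35 CPM in female LatP against 6.99 ± 2.57 CPM in female LatA (log2FC 2.22, adjusted p = 1.02e-05), and 23.2 ± 6.33 CPM in female MP (log2FC 0.51, SE 0.202, adjusted p = 0.237), which is not a call.

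The 5 transcripts of proneural and photoreceptor fate behaved less uniformly. Against MP, 1 was called higher in LatP of males (0.44% of all tested), the X2 isoform of *stem cell tumor*, a rhomboid-family gene (10.6 ± 1.86 CPM in LatP, 2.21 ± 0.683 CPM in MP, log2FC 2.26, adjusted p = 1.1e-06). Against LatA, 1 was called in females (0.329% of all tested), *spalt major*, a zinc finger factor (2.90 ± 0.658 CPM in LatP, 0.219 ± 0.0839 CPM in LatA, log2FC 3.67, adjusted p = 0.00027). *hairy*, a repressor expressed ahead of the furrow in flies, had a log2FC of 1.24 against LatA in males (adjusted p = 0.000809) and of -0.11 against MP (adjusted p = 0.857), which are not calls.

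Markers of differentiated photoreceptors and of eye pigment were read next, as signs of another cell type in the pieces. Of the photoreceptor markers listed, 6 had a name in the sources used here, whereas the rhodopsins, *trp*, *norpA* and *inaD* had none and could not be read. As above, names exist only for transcripts called on these same samples, so the counts are not independent evidence of direction. Of these 6 transcripts, 3 were called higher in LatP than in MP in males and 2 in females (0.44% and 0.245% of all tested). Against LatA, 5 were called in males and 2 in females (0.602% and 0.329%). *chaoptin*, a photoreceptor adhesion protein, was called in all 4 contrasts, with 11.3 ± 6.24 CPM in LatP against 0.168 ± 0.326 CPM in MP in males (log2FC 6.01, adjusted p = 0.000136) and 13.8 ± 7.22 CPM against 0.0237 ± 0.0531 CPM in females (log2FC 8.62, adjusted p = 3.83e-05). *golden goal*, needed for photoreceptor axon guidance, was called in both contrasts in males, with 2.02 ± 0.72 CPM in LatP and 0.248 ± 0.104 CPM in MP. *photoreceptor dehydrogenase* was called against MP in both sexes but against LatA in neither (log2FC 0.67, adjusted p = 0.058 in males, and 1.06, adjusted p = 0.00354, in females), while *arrestin 2* and the myosin *ninaC* were called against LatA in males, and *ninaA*, a chaperone of rhodopsin, against LatA in both sexes. All 5 pigment transcripts (*scarlet*, *white*, *vermilion*, *cinnabar* and *cardinal*) were called in each of the 4 contrasts, with the exception of *white* against MP in males (log2FC 4.67, adjusted p = 0.00308). The shares of all transcripts called in these contrasts are those given above for the photoreceptor markers.

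Summed over the 6 photoreceptor markers, LatP libraries ranged from 9.83 to 115 CPM in males and from 13.8 to 64.3 CPM in females, against 0.799 to 6.15 CPM in male MP and 0.762 to 2.42 CPM in female MP. The ranges of 3.73 to 13.1 CPM in male LatA and 4.30 to 11.5 CPM in male MA overlapped that of male LatP, while female LatA ranged from 4.33 to 9.77 CPM and female MA from 4.82 to 7.88 CPM. Summed over the 5 pigment transcripts, the range was 7.19 to 56.04 CPM in male LatP and 21.7 to 73.6 CPM in female LatP, against 1.43 to 5.86 CPM in male MP and 0.891 to 3.92 CPM in female MP. Of the 11 transcripts none was at 0 throughout LatP in either sex, whereas *ninaA* was at 0 in every MP library and *ninaC* and *white* in every MP library of females. Their part in the result was not tested.

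Of 7 muscle transcripts, 2 were called lower in LatP than in MP in males, as were 0.114% of all transcripts tested (*Muscle protein 20*, log2FC -5.14, adjusted p = 6.4e-05, and *Muscle LIM protein at 84B*, log2FC -4.26, adjusted p = 9.82e-05) and 0 in females, so that muscle markers did not run with the members across regions. Of the neuronal markers listed, only *found in neurons* had a name here, while *elav*, *Synaptotagmin 1*, *neuronal Synaptobrevin*, *bruchpilot* and *futsch* had none and could not be read. *found in neurons* was called higher in LatP than in MP in males, as were 0.44% of all transcripts tested (4.45 ± 0.857 CPM in LatP, 0.727 ± 0.638 CPM in MP, log2FC 2.59, adjusted p = 0.000392). Its part in the result was not tested.

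Between the sexes in LatP, the lists took different values. The 4 members had log2FC between -1.34 and -1.08, beside a median of -0.69 for the 4 retinal determination transcripts and of -0.48 for the 5 fate transcripts. Within the retinal determination list *sine oculis* stood at -1.25 (adjusted p = 3.16e-05), the Pax-6-like and the other Pax-6 transcript of *twin of eyeless* at -0.74 (adjusted p = 0.00918) and -0.64 (adjusted p = 0.561), and *dachshund* at -0.58 (adjusted p = 0.0217). Within the fate list the values had both signs, with *spalt major* at -1.30 (adjusted p = 0.107), *argos*, an inhibitor of EGF receptor signaling, at -1.08 (adjusted p = 0.00634), the X1 and X2 isoforms of *stem cell tumor* at -0.48 (adjusted p = 0.305) and 0.08 (adjusted p = 0.815), and *hairy* at 0.20 (adjusted p = 0.284). The 6 photoreceptor markers had a median of -0.03 and the 5 pigment transcripts a median of -0.63, beside -0.08 over all transcripts tested, with 0 called in any list. *chaoptin*, for instance, averaged 11.3 ± 6.24 CPM in male LatP and 13.8 ± 7.22 CPM in female LatP (log2FC -0.27, adjusted p = 0.717). Muscle transcripts ran with the members, with a median of -1.89 and 6 of 7 at an adjusted p under 0.05, as were 6.79% of all transcripts tested in that direction, and summed levels of 8.93 to 55.6 CPM in male LatP against 12.2 to 202 CPM in female LatP. Their part in the result was not tested.

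**Figure D4:**
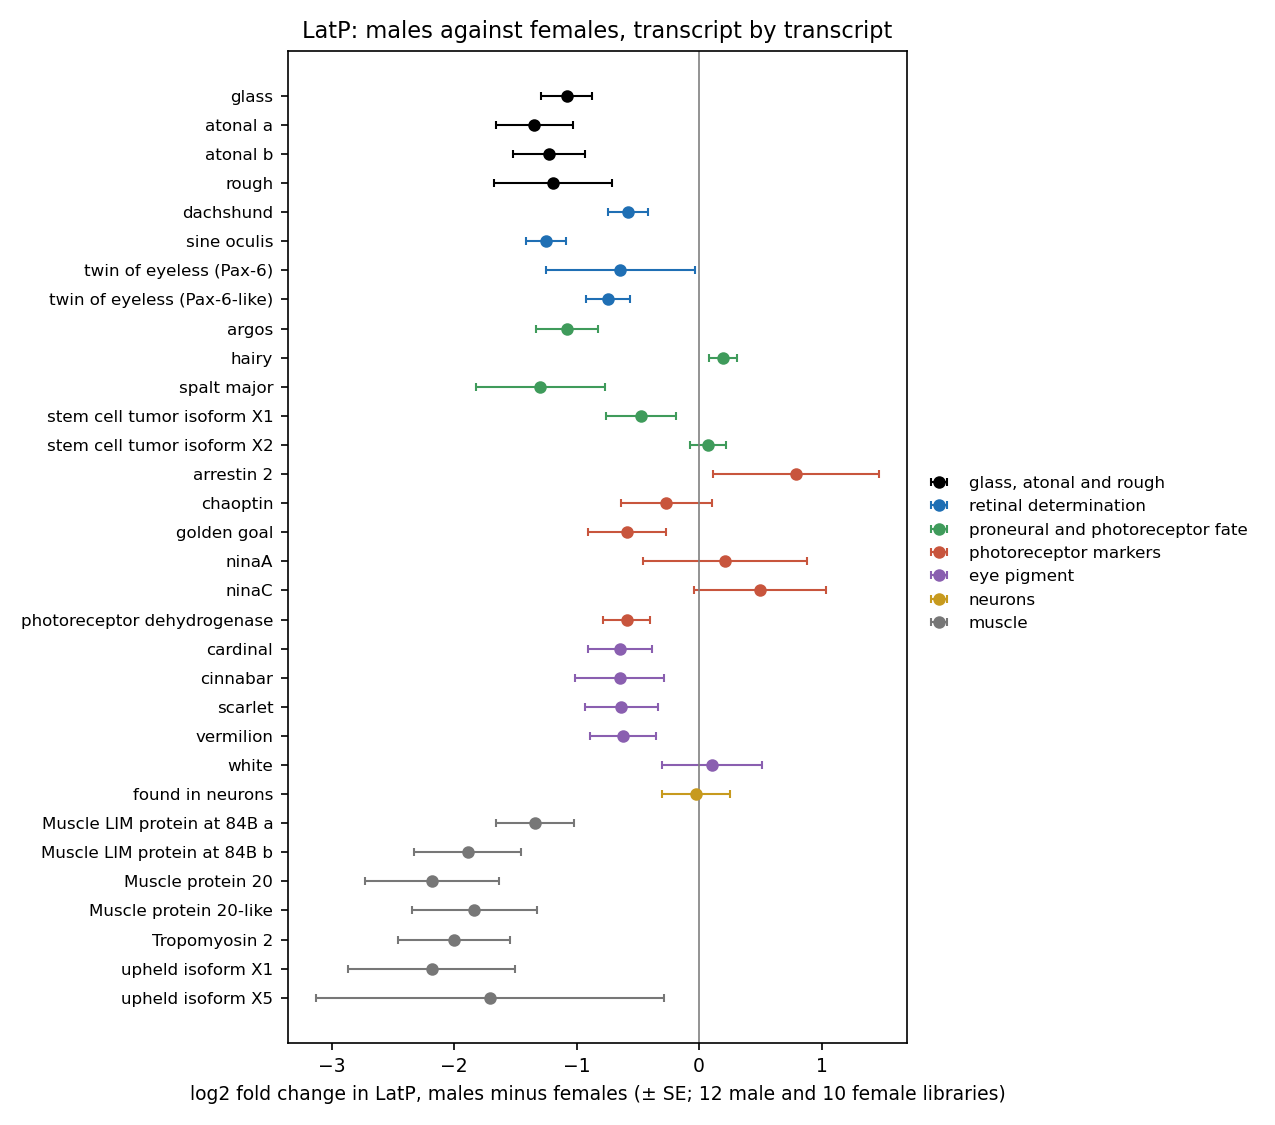
Fitted log2 fold change of males against females in LatP (horizontal axis, negative where males are lower, with its SE from 12 male and 10 female libraries) for the 4 members and each listed transcript. The members lie between -1.34 and -1.08, the photoreceptor markers on both sides of 0, and the muscle transcripts between -2.18 and -1.34.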

How the data were processed

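The authors trimmed single-end stranded reads with Trimmomatic 0.32, aligned them with bowtie2 2.3.2 to the *O. taurus* gene models and deposited RSEM 1.3.0 expected counts per RefSeq transcript, not normalized. Whole numbers made up 74.3% of the values. Rounded counts were fitted with edgeR 4.0.16 under R 4.3.3 (TMM, quasi-likelihood F-test, Benjamini-Hochberg adjustment), within 1 sex for regions and with left and right pieces as separate replicates, following the study, whose own test was DESeq2 (here version 1.42.0, as an alternative). CPM are means per animal of left and right pieces. Duplicate reads cannot be removed without molecular identifiers, so floors cover counting error only. Names came from the study's annotation, and 15104 transcripts (63.7%) matched RefSeq genes, used only for gene membership and neighbors. No 2 libraries were identical, and over 150 pairs of the same group the chi-square was at least 24.2 per degree of freedom. Pieces carry their animal's number in the labels, and deviations of LatP from the group mean correlated with those of the same animal's MP, LatA and MA pieces (mean r between 0.254 and 0.511, against -0.051 to -0.127 for other animals). The members, lists and tests were chosen with earlier results of these data known. Named were the 4 members, other transcripts of their genes, list genes called in a contrast of LatP with MP or LatA, and the 5 transcripts most alike in pattern. Neighboring genes were picked by position after members' values were seen. Fits were tested on simulated counts. Alternatives changed the tool, scaling, filter, thresholds, block, side, isoforms and animals.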

Additional observations from a re-analysis of the deposited data

Results flagged for a closer look

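Within each set of 5 or 6 libraries sharing a sex, side and region, the highest or lowest library was compared with the others by its gap over the whole range (Dixon's test). Of 27 groups in which a member exceeded 3 counts, 11 held such a library, always the highest, where chance alone marks about 1 in 20 groups. In many of these groups the other libraries are at 0, so that any library with reads is marked.

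In the left LatA pieces of females, replicate 3 stood apart for *glass* (3.98 CPM, the other 4 at 0), for *atonal b* (0.832 CPM, the others at 0) and for *rough* (0.416 CPM, the others at 0). In the left LatA pieces of males, replicate 4 stood apart for *glass* (0.547 CPM, the others at 0) and for *atonal b* (0.391 CPM, the others at 0). In the right LatA pieces, replicate 1 of the females stood apart for *atonal a* (5.13 CPM, the others at most 0.464) and *atonal b* (2.02 CPM, the others at 0), and replicate 6 of the males for *atonal a* (0.534 CPM, the others at most 0.145).

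In MA, *atonal a* stood at 0.917 CPM in female 1, against at most 0.129 CPM in the other females. This is the animal whose right LatA piece held the 66 counts of *atonal a*. In LatP, *atonal a* reached 40.3 CPM in the left piece of female 2, against 13.4 to 17.9 CPM in the others, and *atonal b* reached 8.04 CPM in the right piece of female 3, against 2.87 to 4.30 CPM in the others.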

How the results depend on the processing

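Of the 4 transcripts, the number called changed by over 1.5 times as follows, and the cause was not tested unless named. Adding both sides of an animal together, which leaves fewer libraries, gave 1 call against MP in males, 0 against LatA in males, 1 against MP in females and 1 against MA in females, in place of 3 each. Adding the pieces with the replicate block gave 0 against MP, LatA and MA in males and 0 against MP and MA in females (adjusted p between 0.00247 and 0.125 for *glass*, *atonal a* and *atonal b*). LatP against LatA in females, with 0 calls, gave 2 with DESeq2 (with or without a prior), 2 with the replicate block (0 with the pieces also added together, adjusted p = 0.142 for *glass* and 0.0944 for *atonal a*), 4 at an adjusted p under 0.05 and log2FC over 1, 1 with transcripts of a gene added together, 1 with plain library totals and 4 without the 3 LatA libraries rich in members, the last 2 chosen after seeing the data. Males against females in LatP gave 3 at the wider thresholds and 1 with plain totals. Leaving out 1 animal gave 3 to 3 calls against MP in males, 2 to 3 against LatA in males (*atonal a* lost without male 3), 2 to 3 against MP in females (*atonal b* lost without female 1), 0 to 1 against LatA in females (*atonal a* without female 1, *glass* without female 3) and 1 to 3 against MA in females. The replicate block changed no other count of calls by over 1.5 times.

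Directions held in every alternative run for the contrasts of LatP with MP, LatA and MA and for males against females in LatP. The sex difference in the change between LatP and LatA, called for none, reversed for *glass* with the replicate block (-0.30), with pieces added and the block (-0.29), without female 3 (-3.75, with 4.54 the highest when 1 animal was left out) and without the 3 LatA libraries (-1.09). It reversed for *atonal a* without female 1 (-0.53, highest 1.40) and without the 3 libraries (-0.26), for *atonal b* without female 1 (-0.058, highest 2.98) and without the 3 libraries (-2.11), and for *rough* with DESeq2 and a prior (-0.30), with the replicate block (-0.53), without female 3 (-2.07, highest 1.46) and without the 3 libraries (-1.20). Left against right LatP in males reversed for *glass* without male 1 (0.032, lowest -0.60) and for *atonal a* without male 3 (0.028, lowest -0.19), and left against right LatA in females for *atonal a* with the replicate block (0.45) and without female 1 (2.06, lowest -1.76).

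LatP levels in females moved by more than 1 SD with plain totals, to 15.98 CPM for *glass*, 24.6 CPM for *atonal a* and 7.55 CPM for *atonal b*. Leaving out 1 animal gave 5.16 to 5.78 and 10.6 to 11.97 CPM for *glass* in males and females, 5.27 to 7.40 and 15.1 to 19 CPM for *atonal a*, 1.88 to 2.45 and 4.68 to 5.73 CPM for *atonal b*, and 0.264 to 0.358 and 0.609 to 0.807 CPM for *rough*. The sex difference in the change between LatP and MP could not be estimated for *glass*, *atonal b* and *rough*, which have no count in MP. *rough* had 3 counts or fewer in 8 of 12 male LatP libraries, and counting error limits its values there. The median total of male LatP (15152189 counts) was above that of female LatP (13218609 counts). With TMM, on which the levels rest, the order turned. Scaled library sizes ran from 1.127e+07 to 1.545e+07 in male LatP and from 1.372e+07 to 2.563e+07 in female LatP.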
